A study of Mus musculus with 6 samples.

Results

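The genes that hold the G1 gate of the cell cycle were followed in mouse CD8+ T cells: the cyclins Ccnd2 and Ccnd3, their kinases Cdk4 and Cdk6, the inhibitors Cdkn1a, Cdkn1b, Cdkn2c and Cdkn2d, and the pocket proteins Rb1 and Rbl2. They are 10 of the 55414 genes in the deposited table, chosen by name, and all 10 passed the filter on low counts. The cells carried the OT-I receptor, a transgenic T cell receptor for a fragment of chicken ovalbumin presented by H-2Kb, and came from spleen and lymph nodes. Of the 6 libraries, 2 (N4) were made 4 days after the N4 peptide, the native ovalbumin fragment. Another 2 (T4) were made 4 days after T4, an altered peptide that triggers the same receptor less strongly. In both, stimulation came together with antibodies to the costimulatory receptors OX40 and 4-1BB, and the last 2 libraries (naive) are labelled as naive cells, for which no treatment is stated. All 3 groups share the OT-I genotype, and the design sets a strong ligand against a weak one and both against cells labelled naive. The labels used here do not state the age or the number of mice, nor whether each replicate was a separate mouse, so p-values reflect only how far these libraries differ from each other, part of which may be technical.

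D-type cyclins accumulate after growth signals and activate CDK4 and CDK6, which phosphorylate RB1 and its relatives and so free E2F factors to switch on genes for DNA synthesis. The INK4 proteins p18 (Cdkn2c) and p19 (Cdkn2d) bind CDK4 and CDK6 directly and keep cyclin D off them, whereas the CIP/KIP proteins p21 (Cdkn1a) and p27 (Cdkn1b) mainly inhibit cyclin-CDK2 and also bind cyclin D complexes. Resting T cells hold p27 and RBL2 (p130), which with E2F4 and the MuvB proteins represses cell cycle genes, and cells leaving rest for division are known for losing p27 and for making cyclins D2 and D3. Much of this control acts on the proteins, which were not measured here.

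A pair of promoter stretches is printed, though the values below do not measure the use of either. That of Cdk4, which had the larger estimated difference between N4 and T4 of the kinases, holds a repeated motif. The other lies before the downstream start site of Cdkn2c, whose transcript held a lower share of the counts in stimulated than in naive libraries. Both are credited to RefSeq on GRCm38.p6 and written 5′ to 3′, with CACGTG, the E-box bound by MYC and related factors, in capitals.
Cdk4, chr10:127063285-127063533, plus strand: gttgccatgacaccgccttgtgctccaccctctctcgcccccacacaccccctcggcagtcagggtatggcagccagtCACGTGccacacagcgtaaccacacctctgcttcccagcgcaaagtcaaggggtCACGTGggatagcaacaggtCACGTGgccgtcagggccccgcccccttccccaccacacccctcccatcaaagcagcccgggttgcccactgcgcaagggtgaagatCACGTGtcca
Cdkn2c, chr4:109665373-109665609, minus strand: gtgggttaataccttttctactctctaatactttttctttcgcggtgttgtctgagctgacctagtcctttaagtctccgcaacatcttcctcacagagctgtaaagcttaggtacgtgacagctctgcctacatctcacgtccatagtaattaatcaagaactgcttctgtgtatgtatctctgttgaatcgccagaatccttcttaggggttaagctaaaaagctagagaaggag
The Cdk4 stretch is 249 bases long and holds 4 such E-boxes, at positions -172, -118, -98 and -11 from the RefSeq start site. Of 32851 promoter windows of 300 bases (250 before and 50 after a start site), 7.15% held at least 1 CACGTG and 8 windows, or 0.0244%, held 4 or more. The Cdkn2c stretch of 237 bases held none of the motifs searched. These were the E2F motif (TTTCCCGC, TTTGGCGC or TTTCGCGC, in 1.84% of windows), the CHR element TTTGAA (17.9%), the FOXO motif GTAAACA (3.65%), the E-box and TATAAA (13.6%), each read on both strands. Promoter windows were found for 8 of the 10 genes. Among those 11 windows the E2F motif was in none, the CHR element was found once, in Rbl2, and the FOXO motif once, in a Ccnd3 window. Besides Cdk4, a Cdk6 window held an E-box at -220 and TATAAA at -103, and the Cdkn2c window held an E-box at 34 bases after the downstream start, outside the printed stretch. These matches describe letters, not binding.

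The libraries held between 269033066 and 335968843 estimated counts each. Levels are given as CPM, counts scaled to equal library totals after TMM correction, a factor per library that here ran between 0.641 and 1.36. The labelled cell type was present, since the summed CPM of 12 T cell markers lay between 4591 and 8139 in all 6 libraries, with Cd8a at 84.4 and 72.2 CPM in N4, against 113.8 and 103.6 in T4 and 183.3 and 106.0 in naive. RNA of other cells moved with the groups. The 8 neutrophil markers summed to 47.5 and 38.3 CPM in N4, against 12.7 and 5.38 in T4 and 2437 and 25247 in naive, and 7 of the 8 were called lower in N4 than in naive. The 12 macrophage and monocyte markers summed to 22.3 and 19.0 CPM in N4, against 273.4 and 260.4 in T4 and 2287 and 2682 in naive, with 10 of 12 called lower in N4 than in naive. Red cell markers summed to 422.8 and 359.8 CPM in N4, against 6511 and 8124 in T4 and 3447 and 9232 in naive, with 6 of 7 called lower in N4 than in naive. The 11 B cell markers summed to 47.7 and 32.2 CPM in N4, against 173.1 and 150.1 in T4 and 229.6 and 153.4 in naive, with 8 of 11 called lower in N4 than in naive. The part of these other cells in the values below was not tested, and in bulk RNA fewer cells of a type and less RNA per cell cannot be told apart.

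**Figure D1:**
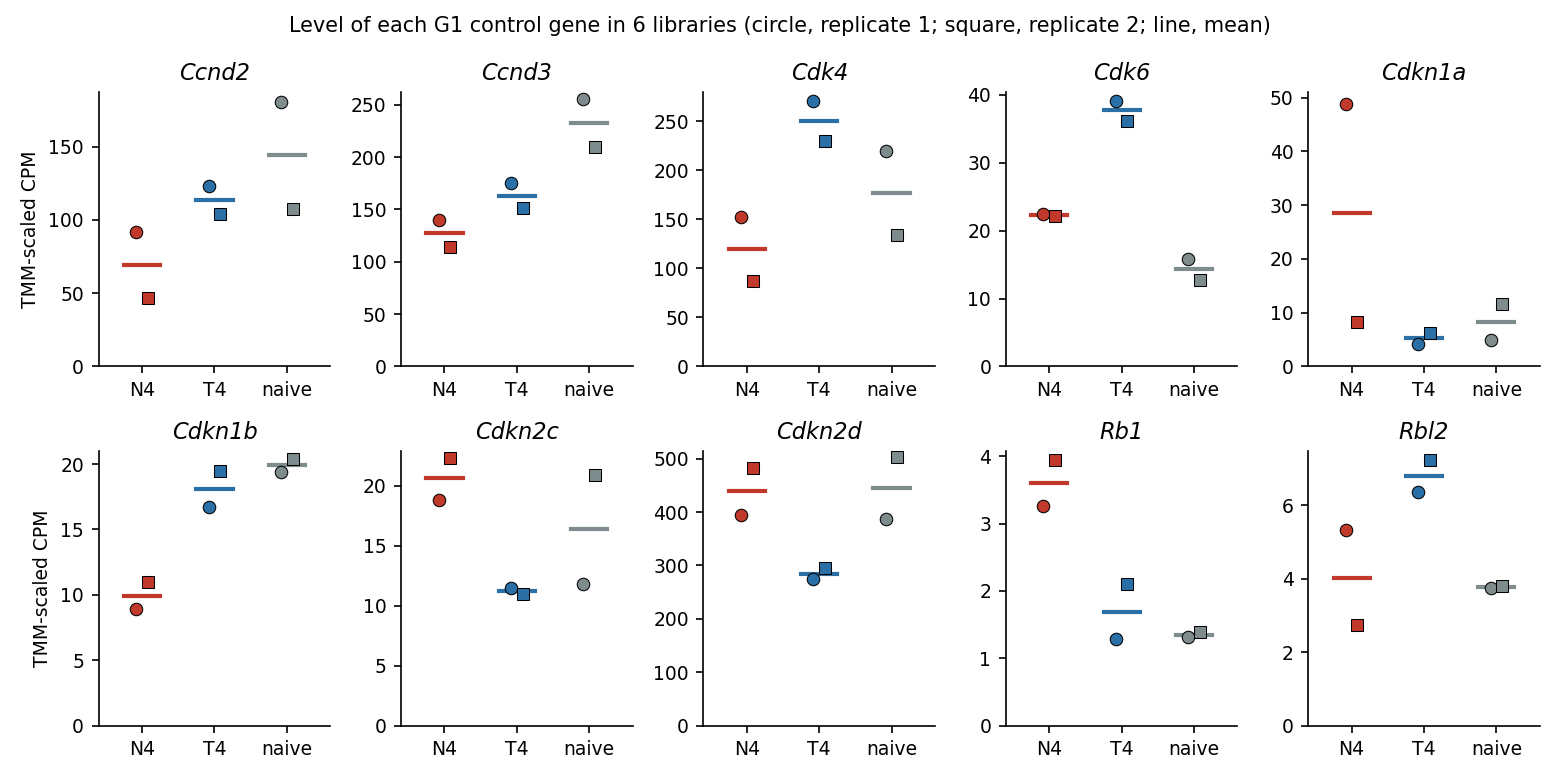
TMM-scaled CPM (linear axes starting at 0) of the 10 G1 control genes in N4, T4 and naive libraries; circles are replicate 1, squares replicate 2 and lines the means of 2 libraries. Cdk6 is highest in both T4 libraries, Cdkn1b lowest in both N4 libraries and Rb1 highest in both N4 libraries, while Cdkn1a is set apart by a single N4 library.

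Compared per length, the set was led by an inhibitor in every group. Cdkn2d averaged 330.3 ± 48.8 CPM per kilobase in N4, against 214.5 ± 9.85 in T4 and 333.2 ± 62.5 in naive (SD, n = 2 each). Ccnd3 and Cdk4 followed, with Ccnd3 at 66.4 ± 5.92 in N4, against 102.0 ± 3.89 in T4 and 168.2 ± 11.5 in naive, and Cdk4 at 60.3 ± 22.9 in N4, against 126.6 ± 12.2 in T4 and 88.8 ± 30.1 in naive, in CPM per kilobase. The order of these neighbours is not settled by their spread in N4. Next came Ccnd2, Cdkn2c, Cdkn1b and Cdk6, with means over all 6 libraries of 20.6, 9.44, 6.2 and 3.35 CPM per kilobase. Cdkn1a has no settled place in this order, since its mean of 10.5 CPM per kilobase over all libraries was 5.79 without N4 replicate 1, and in T4 it averaged 3.83 ± 0.272 (SD, n = 2). The pocket proteins were lowest, Rbl2 at 1.56 and Rb1 at 0.487 CPM per kilobase over all libraries. Of the close relatives outside the list, Ccnd1 averaged 0.409 CPM per kilobase over all libraries, Rbl1 1.91 and Cdk2, the kinase of cyclins E and A, 16.4. Cdkn2a and Cdkn2b stayed under 1 CPM in each library, and Cdkn1c had 0 counts in the N4 and naive libraries, which allows up to 3 counts in each, against 129 and 73 counts in T4.

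None of the 10 genes passed the threshold in any comparison. The test was edgeR's quasi-likelihood test over all 6 libraries with Benjamini-Hochberg adjustment over 23003 genes, called at an adjusted p under 0.05. Between N4 and naive it called 12.1% of all genes (4.87% higher, 7.18% lower) and 0 of 10 members. Between T4 and naive it called 0.117% of all genes (0.0826% higher, 0.0348% lower) and 0 of 10 members, and between N4 and T4 7.96% of all genes (3.48% higher, 4.47% lower) and 0 of 10 members. The smallest adjusted p of a member was 0.051 in N4 against naive, 0.09 in T4 against naive and 0.08 in N4 against T4. At an unadjusted p under 0.05 stood 5 members in N4 against naive (2 higher, 3 lower), where 30.8% of all genes did. The same held for 2 members in T4 against naive (1 higher, 1 lower), beside 14.5% of all genes, and for 6 in N4 against T4 (3 higher, 3 lower), beside 29.2%. DESeq2's Wald test with the same adjustment called 5 members in N4 against naive (Ccnd2, Ccnd3 and Cdkn1b lower, Cdk6 and Rb1 higher), beside 29.4% of the genes it gave an adjusted p. It called 1 member, Cdk6, higher in T4 than in naive, beside 9.4%, and 4 members in N4 against T4 (Cdk4, Cdk6 and Cdkn1b lower, Cdkn1a higher), beside 27.2%. The calls thus depend on the test, and a value past the threshold in DESeq2 alone is given below as a value.

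The median log2 fold change of the 10 members was 0.04 in N4 against naive, -0.24 in T4 against naive and -0.53 in N4 against T4, beside -0.09, 0 and -0.2 over all genes. Between N4 and T4 the values of the 2 groups did not overlap for any of the 10 members, 4 being higher and 6 lower in N4, where 65.2% of all genes did not overlap. Between N4 and naive 5 members did not overlap (2 higher, 3 lower; 55.4% of all genes), and between T4 and naive 6 (3 higher, 3 lower; 48.8% of all genes). Overlap depends on the scaling: with library totals alone, Cdkn1a, Cdkn2c and Rb1 overlapped between N4 and T4. Cdkn2d then turned to lower in N4, with 323 and 310 CPM against 374 and 378 in T4. On that scale no member was higher in N4 than in T4 without overlap. The smallest p that an exact permutation test allows for 2 libraries against 2 is 0.33, and none is given.

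**Figure D2:**
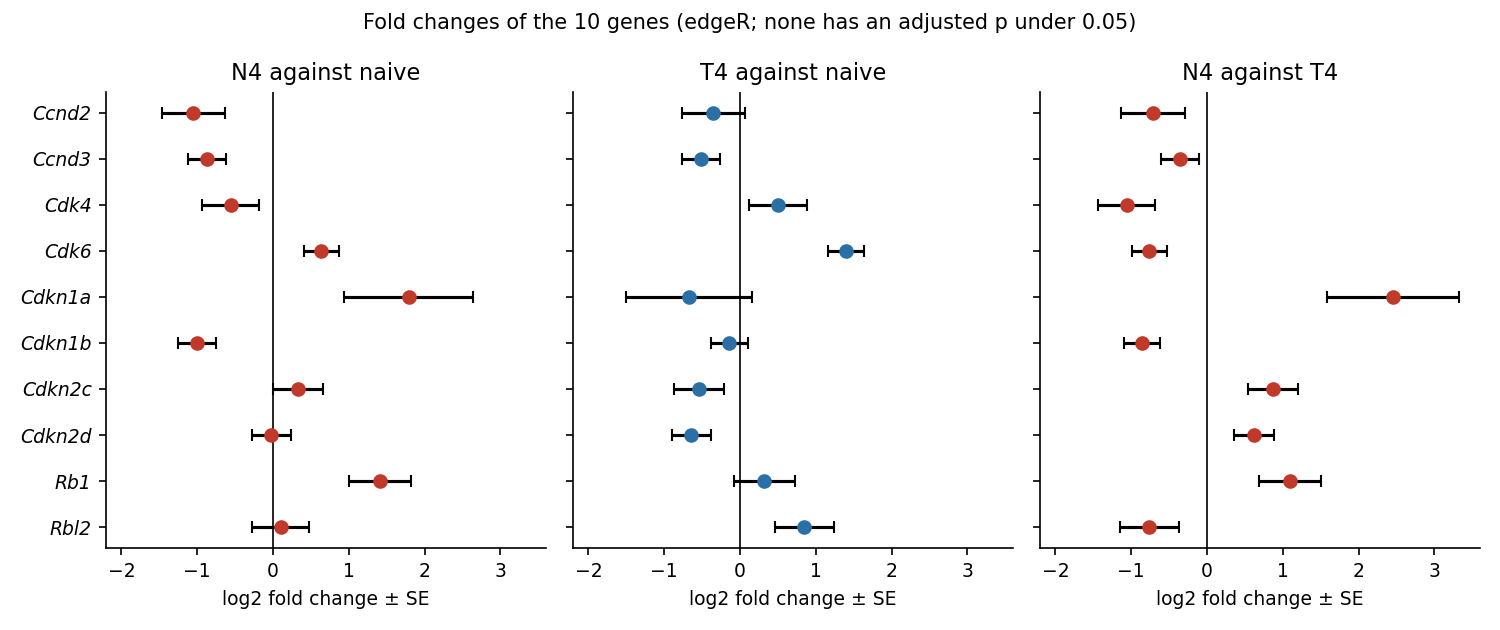
log2 fold change ± SE (edgeR) of the 10 G1 control genes, one panel per comparison, with a vertical line at 0; points right of the line are higher in the first-named group. Cdk6 in T4 against naive (1.40 ± 0.24) and Cdkn1a in N4 against T4 (2.46 ± 0.87) are the largest positive estimates of their panels, and no point has an adjusted p under 0.05.

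Both D cyclins had their lowest means in N4. Ccnd2, cyclin D2 (chr6:127125162-127152193), had 92.0 and 46.7 CPM in N4, against 122.8 and 103.8 in T4 and 180.6 and 107.3 in naive. Both N4 libraries lay below every other library, while T4 and naive overlapped. Its log2 fold change was -1.05 ± 0.42 (SE) in N4 against naive (adjusted p = 0.15), -0.35 in T4 against naive (adjusted p = 0.79) and -0.71 in N4 against T4 (adjusted p = 0.31). Ccnd3, cyclin D3, which proliferating thymocytes are known to need (chr17:47505051-47599691), had 140.1 and 114.4 CPM in N4, against 175.0 and 151.0 in T4 and 255.2 and 209.8 in naive. On this scale the 3 groups did not overlap, with N4 lowest, T4 between and naive highest. Scaled by library totals alone, Ccnd3 had 115 and 73.4 CPM in N4, against 238 and 194 in T4 and 333 and 175 in naive. N4 was still lowest, but T4 and naive then overlapped. Ccnd3 had a log2 fold change of -0.87 ± 0.25 in N4 against naive (adjusted p = 0.076), -0.51 ± 0.25 in T4 against naive (adjusted p = 0.43) and -0.36 ± 0.25 in N4 against T4 (adjusted p = 0.39). Ccnd1, the D cyclin that T cells hardly use, had 0.58 and 0.083 CPM in N4, against 1.96 and 1.84 in T4 and 3.48 and 1.01 in naive.

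The kind of Ccnd3 transcript counted also varied. Transcripts annotated as retaining an intron made up 4.79% and 8.48% of Ccnd3 counts in N4, against 11.8% and 18.8% in T4 and 18.3% and 23.2% in naive. N4 lay below both other groups, and T4 and naive overlapped slightly. Among them 1 model of 754 bases and 3 exons held 2.95% ± 1.48 of the counts in N4, against 10.1% ± 3.63 in T4 and 15.8% ± 2.38 in naive (SD, n = 2 each). The test of transcript use (edgeR's diffSpliceDGE with Simes p-values per gene) gave Ccnd3 an adjusted p of 0.693 in N4 against naive. Between the full-length coding models the split was not stable: Ccnd3-202 took 69.9% and 0.239% of the counts in the N4 libraries, and Ccnd3-215 11.5% and 87.5%.

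The kinases parted in their order over the groups. Cdk4, the main partner of D cyclins in many cells (chr10:127063534-127067920), had 152.3 and 87.0 CPM in N4, against 270.9 and 229.6 in T4 and 219.5 and 133.7 in naive. Both T4 libraries were above all others, and N4 and naive overlapped. For Cdk4 the log2 fold change was -1.06 ± 0.38 in N4 against T4 (adjusted p = 0.13), -0.56 ± 0.38 in N4 against naive (adjusted p = 0.36) and 0.50 in T4 against naive (adjusted p = 0.63). Replicate 2 was below replicate 1 in each group. Myc, which encodes a factor that binds E-boxes like those printed for Cdk4 and is known to activate Cdk4, was singled out after its values were seen. It had 28.5 and 6.54 CPM in N4, against 33.4 and 31.4 in T4 and 37.6 and 11.6 in naive, with a log2 fold change of -0.89 ± 0.79 in N4 against T4 (adjusted p = 0.50), and with adjusted p = 0.72 in N4 against naive and adjusted p = 0.89 in T4 against naive. Its replicate 2 was likewise the lower library in each group, and both N4 libraries were below T4, while naive overlapped with each. Ccnd2 and Ccnd3 were also lower in replicate 2 of each group and lower in N4 than in T4. Such a replicate difference was not limited to these genes. Of the T cell markers, Cd8a and Lck were also lower in replicate 2 of each group, while Cd3d and Cd3g were higher. A part of Myc in the Cdk4 values was not tested.

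Cdk6, the other cyclin D kinase (chr5:3341485-3531008), had 22.4 and 22.2 CPM in N4, against 39.1 and 36.2 in T4 and 15.8 and 12.7 in naive. On this scale the groups did not overlap, with both peptides above naive and T4 above N4. Scaled by library totals alone, Cdk6 had 18.4 and 14.2 CPM in N4, against 53.2 and 46.5 in T4 and 20.7 and 10.6 in naive, so that N4 and naive overlapped and their log2 fold change was 0.06. In T4 against naive the log2 fold change was 1.40 ± 0.24, a 2.64-fold higher level (95% interval 0.82 to 1.97, adjusted p = 0.09). It was 0.64 ± 0.23 in N4 against naive (adjusted p = 0.12) and -0.76 ± 0.23 in N4 against T4 (adjusted p = 0.095). Nearly all Cdk6 counts, between 94.3% and 97.9% per library, fell on 1 transcript, Cdk6-202 of 11525 bases. Divided by length its share averaged 62.7% in N4, against 59.6% in T4 and 67.2% in naive, since shorter models weigh more on that scale. The ratio of Cdk4 to Cdk6, per length, was 24.9 and 15.6 in N4, against 24.8 and 23.0 in T4 and 53.2 and 43.3 in naive. Cdk4 was thus the more abundant kinase RNA in every library, and by a smaller factor in all 4 stimulated libraries than in the naive ones. Taken on Cdk4-201 and Cdk6-202 alone, the ratio was 37.5 and 21.5 in N4, against 34.0 and 34.0 in T4 and 74.2 and 55.1 in naive, in the same order.

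Of the CIP/KIP inhibitors, Cdkn1b was lower in both N4 libraries, while Cdkn1a was set apart in 1 of them. Cdkn1b, p27, a brake that resting T cells are known for (chr6:134920401-134925513), had 8.89 and 11 CPM in N4, against 16.7 and 19.5 in T4 and 19.4 and 20.4 in naive. Both N4 libraries were below all others, while T4 and naive overlapped. The log2 fold change was -1.0 ± 0.25 in N4 against naive, a 2.01-fold lower level (95% interval -1.60 to -0.40, adjusted p = 0.051), and -0.86 ± 0.24 in N4 against T4 (adjusted p = 0.08). In T4 against naive it was -0.14 ± 0.24 with a 95% interval of -0.73 to 0.45 (adjusted p = 0.87), which does not show that the levels were alike. Cdkn1a, p21, a p53 target that is also induced by receptor signals (chr17:29090976-29100727), had 48.8 and 8.31 CPM in N4, against 4.10 and 6.30 in T4 and 4.93 and 11.6 in naive. A single library, N4 replicate 1, stood far above the other 5. For Cdkn1a the estimates were a log2 fold change of 1.79 ± 0.85 in N4 against naive (adjusted p = 0.21) and 2.46 ± 0.87 in N4 against T4 (adjusted p = 0.13). Without N4 replicate 1 these were 0.01 and 0.68. That library also had the largest sum of the 8 stromal and endothelial markers. They summed to 38.6 and 4.13 CPM in N4, against 9.66 and 11.9 in T4 and 9.84 and 10.5 in naive. The excess lay in collagens of fibroblasts: Col1a1 was at 28.8 CPM, Col3a1 at 3.14 and Col1a2 at 1.74. Each had 0 counts in N4 replicate 2 and was under 1 CPM in the other libraries. The other markers were no higher there than in T4 or naive, with Pecam1 at 4.95 CPM, Ccl19 at 0.00906 and Cdh5, Pdgfrb and Kdr at 0. The part of such RNA in the Cdkn1a value was not tested. The split of Cdkn1a counts over its transcripts also changed between replicates, with Cdkn1a-202 at 1.51% and 67.9% in N4, against 63.2% and 0% in T4 and 65.1% and 14.6% in naive.

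With TMM scaling, the INK4 inhibitors had lower means in T4 than in the other groups. Cdkn2d, p19 (chr9:21288410-21291407), had 393.9 and 483.5 CPM in N4, against 275.3 and 294.4 in T4 and 386.4 and 502.6 in naive. On this scale both T4 libraries were below the others, and N4 and naive covered the same range. Scaled by library totals alone, Cdkn2d had 323 and 310 CPM in N4, against 374 and 378 in T4 and 505 and 419 in naive. N4 was then lowest, T4 between and naive highest, without overlap. Cdkn2d had a log2 fold change of -0.64 ± 0.26 in T4 against naive (adjusted p = 0.34), 0.62 ± 0.26 in N4 against T4 (adjusted p = 0.18) and -0.02 ± 0.26 in N4 against naive, with a 95% interval of -0.65 to 0.61 (adjusted p = 0.98). The share of its most counted transcript, of 1423 bases, varied little and was 55.9% ± 1.23 in N4, against 54.2% ± 0.666 in T4 and 56.2% ± 0.979 in naive (SD, n = 2 each). Cdkn2c, p18 (chr4:109660876-109667189), had 18.8 and 22.3 CPM in N4, against 11.5 and 11 in T4 and 11.8 and 20.9 in naive. N4 was above T4, and the naive libraries spanned nearly the whole range. The log2 fold change was 0.87 ± 0.33 in N4 against T4 (adjusted p = 0.15), 0.33 ± 0.33 in N4 against naive (adjusted p = 0.54) and -0.54 ± 0.33 in T4 against naive (adjusted p = 0.53).

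The counts of Cdkn2c were split over its transcripts differently in stimulated and naive libraries. The gene has 2 annotated transcripts, both coding for the same 168 amino acids. Cdkn2c-202 starts at chr4:109667189 and has 3 exons, 2471 bases and a leader of 1591 bases before the coding sequence. Cdkn2c-201 starts 1817 bases downstream, just after the Cdkn2c stretch printed above, and has 2 exons, 1106 bases and a leader of 226 bases. In differentiating mouse muscle cells a shorter Cdkn2c transcript made from a downstream promoter is known. Here Cdkn2c-202, the longer one, took 80.6% and 84.2% of the Cdkn2c counts in N4, against 79.9% and 73.9% in T4 and 24.2% and 33.2% in naive. The longer transcript led in all 4 stimulated libraries and the shorter one in both naive libraries, with no overlap.

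The difference in share was 53.7 percentage points in N4 against naive (combined SD 6.89) and 48.2 in T4 against naive (combined SD 7.71), both larger than the spread between replicates. Between N4 and T4 it was 5.51 points (combined SD 4.96), and the nearest libraries of those groups were 0.705 points apart. Each share rests on 4145 to 5218 estimated counts, and the 95% Wilson intervals, which cover counting error only, ran within 79.4% to 85.2% in N4, 72.5% to 81.0% in T4 and 23.0% to 34.5% in naive. Since the longer model collects more counts per molecule, the shares were also computed per length. Cdkn2c-202 then held 65.1% and 70.4% in N4, against 64.1% and 55.9% in T4 and 12.5% and 18.2% in naive, so the order of the groups stayed.

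In CPM with TMM scaling, the longer transcript averaged 3.46-fold higher and the shorter 3.19-fold lower in N4 than in naive. In T4 they were 1.77-fold higher and 4.42-fold lower than in naive. These folds, unlike the shares, depend on the scaling between libraries. The gene totals of N4 and naive overlapped with TMM. Scaled by library totals alone, Cdkn2c had 15.4 and 14.3 CPM in N4, against 15.7 and 14.1 in T4 and 15.5 and 17.4 in naive. The test of transcript use did not call Cdkn2c: its log2 relative use of Cdkn2c-202 was 1.01 in N4 against naive (diffSpliceDGE gene adjusted p = 0.641), 0.94 in T4 against naive (adjusted p = 1) and 0.07 in N4 against T4 (adjusted p = 1). That test called 0.799%, 0.26% and 1.04% of 10393 genes in the same order of comparisons, and none of the 9 members it covered, Rb1 not being among them. Among 5245 genes with measured alternatives, 59 (1.12%) had a transcript that gained at least as large a share in N4 against naive without overlap, and 42 (0.801%) in T4 against naive. The transcript shares were picked out after they were seen, and the comparisons share the naive libraries. The naive libraries also held the neutrophil and macrophage RNA given above, whose part in the share was not tested. The naive library with the 2437 CPM neutrophil sum had 24.2% of the longer transcript and the one with 25247 CPM had 33.2%.

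**Figure D3:**
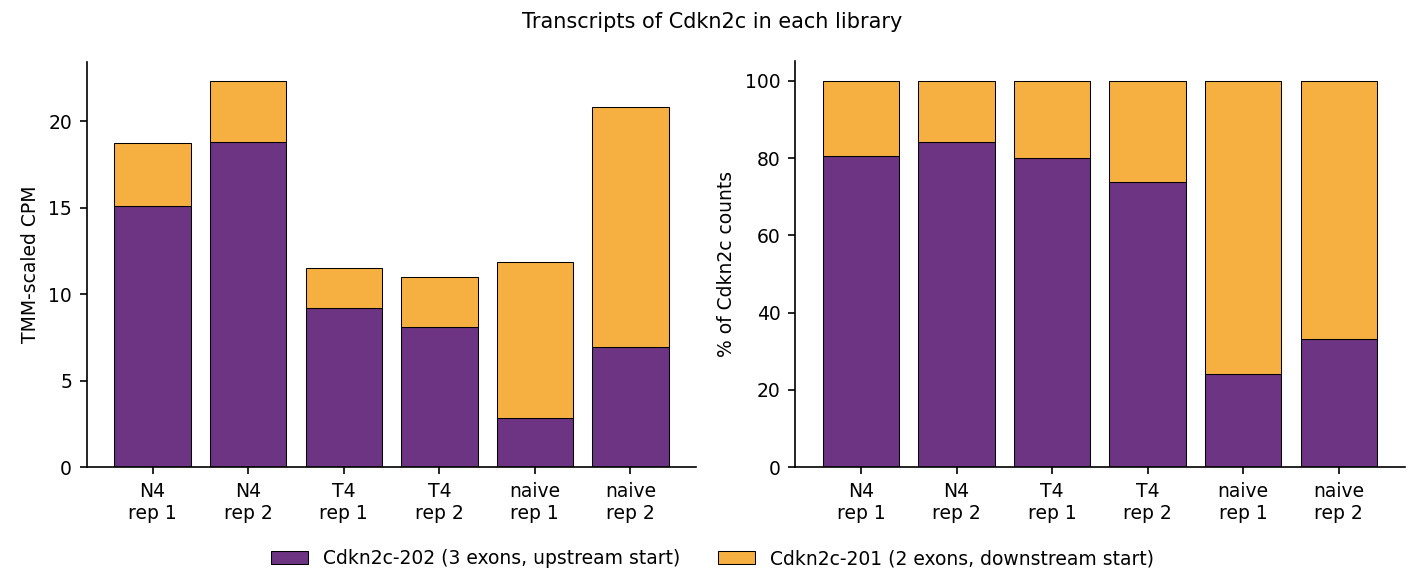
Cdkn2c in each of the 6 libraries, as TMM-scaled CPM stacked by transcript (left) and as percent of Cdkn2c counts (right). The longer transcript Cdkn2c-202 holds between 73.9% and 84.2% of the counts in the N4 and T4 libraries, and 24.2% and 33.2% in the naive ones.

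The pocket proteins, which hold E2F factors in check, were low in all groups. Rb1, the retinoblastoma protein (chr14:73183673-73325822), had 3.26 and 3.94 CPM in N4, against 1.28 and 2.11 in T4 and 1.31 and 1.39 in naive. Both N4 libraries were above all others, and T4 and naive overlapped. For Rb1 it came to a log2 fold change of 1.41 ± 0.41 in N4 against naive, a 2.66-fold higher level (95% interval 0.42 to 2.41, adjusted p = 0.076), 1.09 ± 0.41 in N4 against T4 (adjusted p = 0.14) and 0.32 ± 0.40 in T4 against naive (adjusted p = 0.80). Exons of Rb1-201 overlap those of Rcbtb2 on the opposite strand over 105 bases, and the library kit does not mark strand. Rcbtb2 had 46.4 and 63.4 CPM in N4, against 25.6 and 32.1 in T4 and 32.5 and 45.0 in naive, with TMM also highest in N4, and its part in the Rb1 value was not tested. Rbl2, p130 (chr8:91070057-91123844), had 5.33 and 2.74 CPM in N4, against 6.37 and 7.25 in T4 and 3.75 and 3.80 in naive. Both T4 libraries were highest, and the N4 libraries lay on either side of naive. The log2 fold change was 0.85 ± 0.39 in T4 against naive (adjusted p = 0.39), -0.76 ± 0.39 in N4 against T4 (adjusted p = 0.25) and 0.10 ± 0.38 in N4 against naive (adjusted p = 0.90). Rbl1, p107, the relative that dividing cells make, had 7.57 and 7.84 CPM in N4, against 6.87 and 4.67 in T4 and 5.47 and 3.78 in naive. It was higher in N4 than in naive in each library, with adjusted p = 0.20.

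Part of the Rbl2 counts lay on models with a retained intron, 1.70% and 14.4% in N4, against 26.4% and 22.2% in T4 and 13.1% and 14.6% in naive. T4 was highest in both libraries. The single-exon model Rbl2-209 of 932 bases at the start of the gene held 15.0% and 18.1% of the counts in T4. Overlaps on the opposite strand also touch Cdk4-201 (Tspan31, 641 bases), Rbl2-201 (Aktip, 418 bases, and Gm45464, 408 bases) and Ccnd3-215 (Bysl, 353 bases). Others touch Ccnd2-201 (Gm43126, 372 bases), Cdk6-202 (Gm17590, 110 bases) and Cdkn1a-201 (AC167363.2, 93 bases). The values of these genes are less certain for it. Tspan31 had 48.6 and 58.6 CPM in N4, against 62.4 and 55.9 in T4 and 49.3 and 77.4 in naive, and its groups overlapped in each comparison.

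Set against each other per length within a library, the kinases came closest to their INK4 inhibitors in T4. The sum of Cdk4 and Cdk6 divided by the sum of Cdkn2c and Cdkn2d was 0.261 and 0.125 in N4, against 0.659 and 0.542 in T4 and 0.376 and 0.176 in naive. Both T4 libraries were above the others, N4 and naive overlapped, and inhibitor RNA exceeded kinase RNA in every library. The ratio of Rbl2 to Rb1 was 1.60 and 1.07 in N4, against 8.54 and 5.30 in T4 and 3.94 and 3.62 in naive, with no overlap between groups. Short retained-intron models carry much of it: divided by length, Rbl2-209 held 42.9% and 51.6% of Rbl2 in T4. On the coding models Rbl2-201 and Rb1-201 alone the ratio was 1.52 and 0.561 in N4, against 3.46 and 2.56 in T4 and 2.35 and 2.20 in naive, still without overlap, T4 being nearer to naive. The ratio of Ccnd3 to Ccnd2 was 3.44 and 5.46 in N4, against 4.81 and 5.07 in T4 and 5.82 and 7.93 in naive. N4 and T4 overlapped. Divided by length, the Ccnd3 retained-intron model of 754 bases held 5.01% and 9.75% of Ccnd3 in N4, against 16.7% and 25.6% in T4. In naive it held 27.2% and 30.4%, so part of the higher naive ratio lies on this short model. Whether the naive ratio is also higher on coding models alone was not tested. A ratio within a library does not depend on the scaling between libraries.

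**Figure D4:**
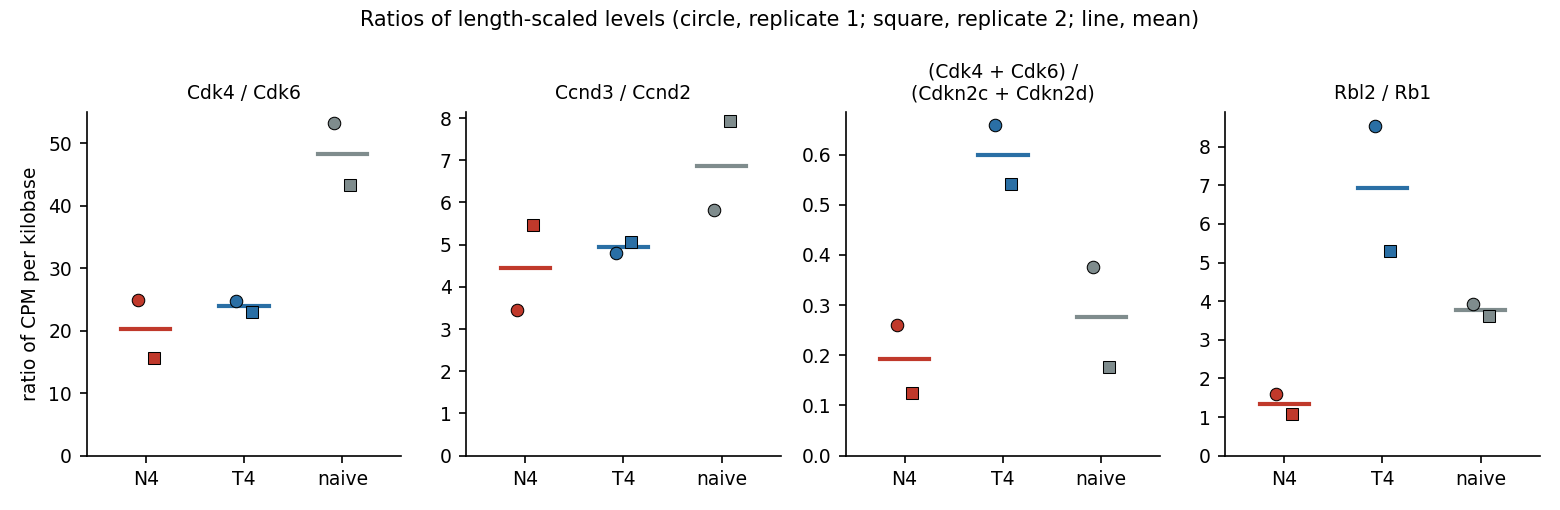
Ratios of length-scaled levels (CPM per kilobase, linear axes starting at 0) within each library, for N4, T4 and naive; circles are replicate 1, squares replicate 2 and lines the means of 2 libraries. Cdk4 to Cdk6 is 43.3 or more in naive and 24.9 or less in the stimulated libraries, and the ratio of kinases to INK4 inhibitors is highest in T4.

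Genes further along the pathway passed the threshold in N4 against naive. In N4 against naive, 8 of 14 other cyclins, CDKs and CDC25 phosphatases were called higher and none lower, with a median log2 fold change of 1.67 beside -0.09 over all genes. Ccne2, cyclin E2, had 41.6 and 55.8 CPM in N4, against 4.82 and 6.54 in T4 and 2.56 and 4.82 in naive, and rose with a log2 fold change of 3.72 ± 0.42 (adjusted p = 0.0096) in N4 against naive and 3.10 ± 0.41 (adjusted p = 0.023) in N4 against T4. Its N4 libraries stood far above the other 4. Ccna2, cyclin A2, had 61.3 and 50.4 CPM in N4, against 20.7 and 18.9 in T4 and 8.06 and 5.72 in naive, with adjusted p = 0.0081 in N4 against naive and adjusted p = 0.035 in N4 against T4. Of the E2F, DP and pocket proteins 5 of 11 were called higher in N4 than in naive (median 1.48), among them E2f1, E2f2, E2f3 and E2f8. E2f1, an activator that free of RB1 drives S phase genes, had 14.6 and 11.2 CPM in N4, against 13.4 and 10.5 in T4 and 4.62 and 4.63 in naive. Its log2 fold change in N4 against naive was 1.48 ± 0.28 (adjusted p = 0.027), and in T4 against naive it was 1.37 ± 0.28 (adjusted p = 0.12).

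Of 20 G1/S genes that E2F is known to bind, 15 were called higher and none lower in N4 against naive (median 2.00), and of 12 G2/M genes 10 were (median 2.86). Pcna, the sliding clamp of DNA polymerases, had 752.0 and 845.4 CPM in N4, against 244.3 and 241.1 in T4 and 156.2 and 219.7 in naive. Its log2 fold change was 2.09 ± 0.28 in N4 against naive (adjusted p = 0.013) and 1.72 ± 0.27 in N4 against T4 (adjusted p = 0.028). Mki67, the Ki-67 protein of dividing cells, had 32.4 and 35.0 CPM in N4, against 14.1 and 11.9 in T4 and 4.37 and 4.62 in naive, and was called in N4 against naive (adjusted p = 0.0071) and in N4 against T4 (adjusted p = 0.031). In both genes T4 stood between the other groups. Cdkn3, a phosphatase that acts on CDK2, was the 1 of 4 other CDK inhibitors called, with 295.7 and 409.1 CPM in N4, against 50.9 and 57.0 in T4 and 13.6 and 33.8 in naive (adjusted p = 0.012 in N4 against naive, adjusted p = 0.033 in N4 against T4). Of 6 measured MuvB members and partners 1 was called higher in N4 than in naive, Mybl2 (log2 fold change 2.90 ± 0.53, adjusted p = 0.025).

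Of 13 measured genes for the turnover of cyclin D and p27, 2 were called higher in N4 than in naive and none lower. They were Cks1b and Cks2, which encode small CDK-binding proteins, CKS1 being needed by the SKP2 ligase to mark p27 for destruction. Cks1b had 1943 and 2638 CPM in N4, against 511.2 and 570.8 in T4 and 204.8 and 494.6 in naive (log2 fold change 2.71 ± 0.48, adjusted p = 0.023 in N4 against naive). Skp2 itself, the ligase subunit, had 1.92 and 4.02 CPM in N4, against 2.69 and 2.25 in T4 and 1.81 and 1.02 in naive and was not called. Of 15 genes linked to quiescence and FOXO factors 5 were called lower and none higher in N4 against naive (median -1.08). Tsc22d3 (GILZ), a FOXO and glucocorticoid target, had 25.2 and 32.2 CPM in N4, against 49.4 and 47.4 in T4 and 333.8 and 266.2 in naive. It fell in N4 against naive (log2 fold change -3.39 ± 0.28, adjusted p = 0.0071) and was the one listed gene called in T4 against naive (-2.63 ± 0.27, adjusted p = 0.049), a comparison in which edgeR called no gene of the table without any one N4 or T4 library (between 1577 and 3313 genes then had an unadjusted p under 0.05). Btg1, an antiproliferative gene, had 237.0 and 271.3 CPM in N4, against 410.9 and 424.7 in T4 and 1122 and 1416 in naive (adjusted p = 0.0096 in N4 against naive, adjusted p = 0.085 in T4 against naive).

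Of 13 measured p53 genes and targets, the group to which Cdkn1a belongs, 2 were called lower and none higher in N4 against naive, Bbc3 (PUMA, a death inducer) and Sesn1. Bbc3 had 10.9 and 12.7 CPM in N4, against 15.6 and 15.1 in T4 and 56.3 and 51.6 in naive (log2 fold change -2.2 ± 0.23, adjusted p = 0.0091). In N4 against T4, 2 were called higher, Ei24 and Ccng1 (adjusted p = 0.028 and 0.031). Of 13 genes of IL-2 and growth signalling 2 were called higher and 1 lower in N4 against naive. Il2ra, the high-affinity IL-2 receptor chain, had 21.8 and 18.8 CPM in N4, against 0.914 and 0.452 in T4 and 0.761 and 0.661 in naive, and rose in N4 against naive (log2 fold change 4.84 ± 0.45, adjusted p = 0.008) and in N4 against T4 (4.89 ± 0.45, adjusted p = 0.014). Both N4 libraries stood apart, and T4 and naive overlapped. Il2rg, the common cytokine receptor chain, was the lower one (157.6 and 140.3 CPM in N4, against 373.7 and 342.7 in T4 and 642.5 and 369.8 in naive, adjusted p = 0.026).

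The counts rest on all 6 libraries. In N4 against naive, without any one N4 or T4 library, 4 or 5 of the other cyclins and CDKs were called, 7 to 10 of the G1/S genes and 5 to 7 of the G2/M genes, each lowest without N4 replicate 2. The E2F list then had 2 or 3 calls, the turnover list 0, the quiescence list 1 or 2 and the growth list 1. Without either N4 library the MuvB list had 0 calls and the p53 list 1, and without naive replicate 2 the quiescence list had 10, the turnover list 5 and the p53 list 4. Scaling by library totals alone left 6 calls among the G1/S genes, 7 among the G2/M genes, 4 among the other cyclins and CDKs, 1 in the E2F list, 0 in the MuvB list and 2 in the growth list, and gave 3 each in the turnover and p53 lists. The marker sums of other cells given above moved with the same groups, and their part in these lists was not tested.

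In T4 against naive, edgeR called no other gene of these lists. DESeq2's Wald test there called 6 of the other cyclins and CDKs, 5 of the E2F list, 11 G1/S genes, 7 G2/M genes and 1 MuvB gene higher, and 4 quiescence genes, 2 p53 genes and 1 growth gene lower. With no filter on low counts edgeR called 4, 1, 7, 3 and 1 higher in the same order of lists, and 2 quiescence genes and 1 p53 gene lower. The medians there were 0.99 for the other cyclins and CDKs, 1.10 for the G1/S genes and 1.3 for the G2/M genes, beside 0 over all genes, with the naive libraries shared between both comparisons. In N4 against T4 the calls higher in N4 were 3 of 14 other cyclins and CDKs (Ccne2, Ccna2 and Ccnh), 3 of 20 G1/S genes (Pcna and Rrm1 among them), 7 of 12 G2/M genes, 1 turnover gene (Skp1a) and 1 growth gene (Il2ra), and Btg2, an antiproliferative gene, was called lower (adjusted p = 0.041). Each of these lists fell to 0 calls in N4 against T4 without any one N4 or T4 library, except the growth list, which kept a count of 1 without N4 replicate 1 and without T4 replicate 1. With scaling by library totals alone, the median of all genes moved to -0.65 in N4 against naive, 0.30 in T4 against naive and -1.05 in N4 against T4. In N4 against T4 the median of the other cyclins and CDKs, 0.46 with TMM, then turned to -0.38 and that of the E2F, DP and pocket proteins, 0.42 with TMM, to -0.45, both above that of all genes. The median of the G2/M genes was 1.40 with TMM and 0.54 with library totals. N4 higher calls were 40.4% of all calls in N4 against naive and 43.8% in N4 against T4 with TMM, and 28.1% and 15.6% with library totals. Among the members that scaling turned the sign of Cdkn2c and Rbl2 in N4 against naive, of Cdkn1b in T4 against naive, and of Cdkn2c and Cdkn2d in N4 against T4.

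**Figure D5:**
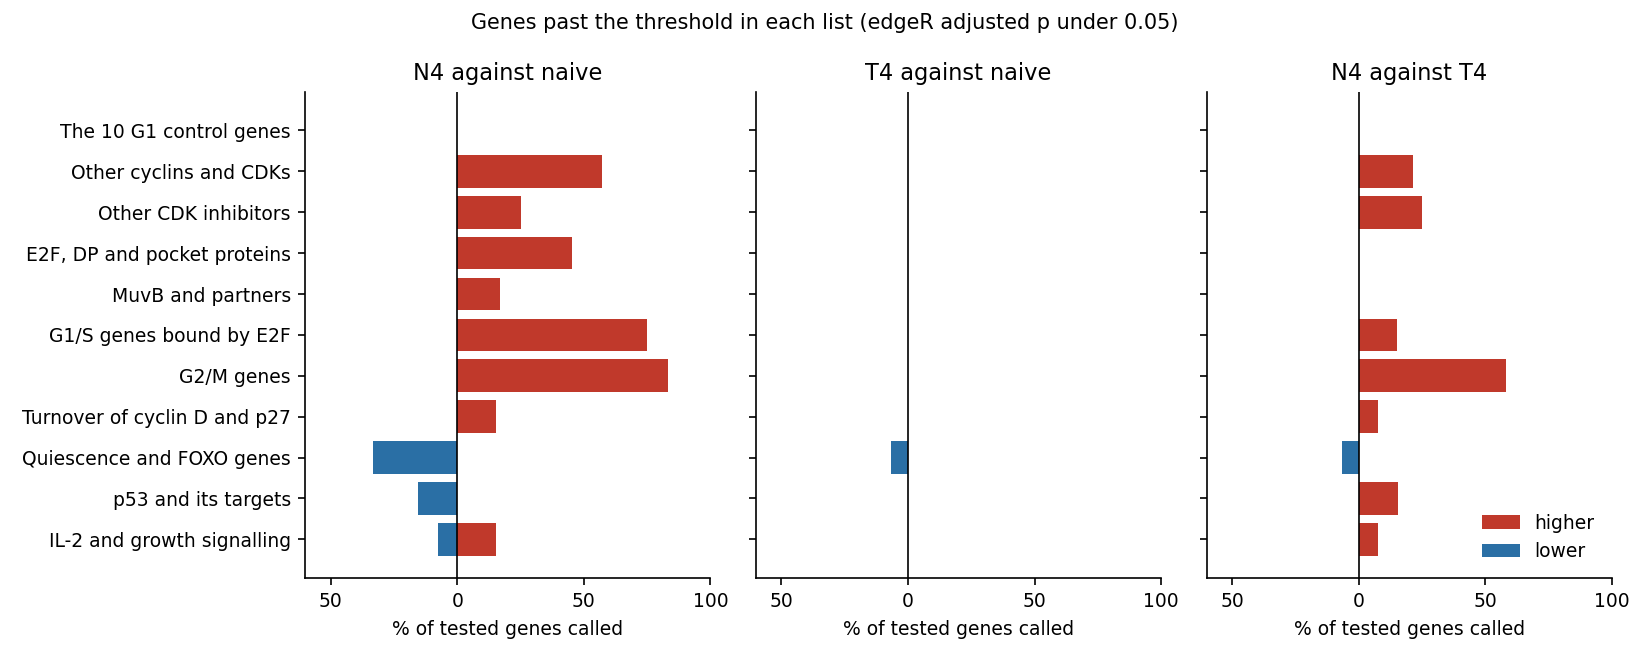
Percent of tested genes called (edgeR, adjusted p under 0.05) in the 10 G1 control genes and 10 pathway lists, higher to the right in red and lower to the left in blue, one panel per comparison. None of the 10 G1 control genes is called in any panel, beside 15 of 20 G1/S genes and 10 of 12 G2/M genes in N4 against naive.

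For each member the genes of most similar profile were taken by the root mean square (RMS) difference of log2 CPM, centred on each gene's mean over the 6 libraries, among 5335 genes whose mean log2 CPM reached 3. Cdkn2c lay closest to Synj2bp (RMS 0.05) and Ndufaf4 (0.07), and Cdk4 to Ntmt1 (0.05) and Copz1 (0.09). Synj2bp had 73.7 and 81.6 CPM in N4, against 45.2 and 41.5 in T4 and 44.2 and 75.3 in naive, the split naive pair included. Cdkn2d was nearest to Gimap1os and Btla (both 0.04), Cdkn1b to C87436, Msrb2 and Map1lc3b (all 0.09), Ccnd3 to Lars2 (0.07) and Ccnd2 to Tmub2 (0.09). Cdk6 was nearest to Ccdc34 (0.10) and Slamf6 (0.13), Rb1 to Trim59 and Topbp1 (both 0.15) and Rbl2 to Capg (0.14). Cdkn1a had no close companion, its nearest gene being Xcl1 at 0.59, with 688.2 and 140.1 CPM in N4, against 60.0 and 72.7 in T4 and 23.6 and 138.8 in naive. As for Cdkn1a, a single N4 library was far above the rest. With 6 libraries such likeness describes these libraries alone.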

How the data were processed

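Polyadenylated RNA of OT-I CD8+ T cells was measured in 6 libraries, 2 each for N4, T4 and naive. The authors deposited estimated counts per gene and per transcript, not normalized, as whole numbers, so no rounding was needed. Per the submitters' processing notes, the tools were DESeq2 1.30.1, R 4.0.5, StringTie 2.1.0, SAMtools 1.9 and STAR 2.7.1a, and the build was mm39, with no role given. Per the labels' protocols, a miRNeasy Micro kit served for extraction and a SMARTer ultra-low input kit for the libraries. Kits of that kind do not mark strand. The scale of such estimates can depend on an assumed read length, which is not stated in these sources, so totals are not numbers of reads and counting intervals may be too narrow.

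Symbols, transcript models and lengths came from GENCODE M21 and promoters from RefSeq, both on GRCm38, so all coordinates are GRCm38. A symbol was found for 94.0% of gene identifiers and a model for 97.1% of transcripts. Levels are CPM with TMM scaling (edgeR 4.0.16, R 4.3.3), and per-length levels divide each transcript's CPM by its length. edgeR's quasi-likelihood test was fitted to the 3 group means after filterByExpr (23003 genes), with a common spread from all 6 libraries, with 3 residual and 3.1 prior degrees of freedom. DESeq2 1.42.0, other scalings, no filter, a replicate block, a fit on only the groups compared and leaving out each library were alternatives. Transcript use was tested with diffSpliceDGE, added after the transcript shares were seen.

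On simulated counts for 23003 genes, the gene test found 1.25%, 3.7% and 56.1% of genes changed 2-, 4- and 16-fold in N4 against naive, 0%, 9.09% and 44.9% in T4 against naive, and 0%, 16.2% and 59.4% in N4 against T4, with 5 or 6 false calls each. The changed genes, 80, 54 and 66 in N4 against naive, were drawn from genes of any level. In the data 12.1% of genes were called there, so the adjusted threshold was stricter in the simulation. These shares thus do not give the chance of a call for the members.

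The members and all lists were chosen with earlier results of these data known. Named genes are the members, their close relatives, up to 3 genes of smallest p per pathway list and comparison, and for each member the 3 genes most like it; genes that overlap a member, Myc and transcripts named singly were chosen after their values were seen. Same-numbered libraries were not taken as pairs.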

Additional observations from a re-analysis of the deposited data

How the results depend on the processing

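Of 360 recomputed log2 fold changes of the 10 genes (30 estimates under 12 alternatives), 315 kept direction and side of the threshold, 32 newly passed it in the same direction and 13 changed sign. The count of members called in N4 against naive, 0, became 1 with library size scaling and with DESeq2 size factors, 5 with DESeq2's Wald test, 2 when the filter was dropped and 3 with the replicate block. All genes called were then 2472, 2711, 6246, 4257 and 3620 in the same order, out of 23003 tested (34879 with no filter). In T4 against naive the count of members became 1 with DESeq2 and 1 with no filter. In N4 against T4 that count became 1 with library size scaling (beside 2056 of all genes), 4 with DESeq2, 2 with no filter, 1 with the replicate block and 3 with only the groups compared. The other counts of all genes are given below. Leaving out 1 library gave 0 to 1 members for the N4 and naive contrast, 0 for T4 against naive, and 0 to 3 for N4 against T4. The cause was not tested.

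All genes called, 2772, 27 and 1830, became 6246, 1995 and 5781 with DESeq2, 4257, 956 and 3834 with no filter, and 1044, 0 and 5281 with only the groups compared. In T4 against naive the count was 53 with library size scaling, 0 with DESeq2 size factors (3360 at an unadjusted p under 0.05; with only the groups compared 3531) and 130 with the replicate block, and in N4 against T4 it was 3367 with that block. Leaving out 1 library gave 639 to 4487 genes for N4 against naive, 0 to 357 genes for T4 against naive, and 0 to 4547 genes for N4 against T4; without N4 replicate 2, or without T4 replicate 2, no gene was called in N4 against T4 (4752 and 3818 at an unadjusted p under 0.05). A lone library was then assumed to vary like the other groups.

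Signs turned in N4 against naive for Cdkn2c (-0.15 with library size scaling, -0.16 to 0.79 on leaving out 1 library), Cdkn2d (-0.34 to 0.18 on leaving out 1) and Rbl2 (-0.40 with library size scaling, -0.03 with no filter, -0.46 to 0.49 on leaving out 1). In T4 against naive they turned for Cdkn1a (-1.25 to 0.07 on leaving out 1), Cdkn1b (0.17 with library size scaling) and Rb1 (-0.15 to 0.59 on leaving out 1), and in N4 against T4, with library size scaling, for Cdkn2c (-0.00091) and Cdkn2d (-0.25). None of these estimates was past the threshold. The labels tie same-numbered libraries by number alone. The correlations of their deviations over all genes were 0.017 (N4 and T4), 0.08 (N4 and naive) and 0.037 (T4 and naive). Among genes whose mean log2 CPM reached 3 they were higher, at 0.199, 0.344 and 0.213 in the same order. What such libraries share was not tested, and the replicate block is given as counts alone. The log2 relative use of Cdkn2c-202 lay between 0.91 and 1.23 in N4 against naive and between 0.84 and 1.16 in T4 against naive over its alternatives. The ratio alternative on single coding models, chosen after seeing the data, moved the mean ratio of Rbl2 to Rb1 in T4 to 3.01 and that of Cdk4 to Cdk6 in naive to 64.7.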
